A study of Mus musculus with 6 samples.

Results

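Interferon-stimulated genes and RNA sensors were followed in lung-resident fibroblasts after transfection with AURKB siRNA. The members were 38 genes given by symbol, and all 38 were among the 14870 genes of the deposited table. No measured value was used to choose them, although earlier results of these data were known. RNA had been sequenced from 3 AURKB siRNA samples and 3 control siRNA samples, collected 72 h after transfection. Both groups came from TGFα mice (CCSP-rtTA;TGFα) that had been on doxycycline (Dox) for 10 days. In these mice rtTA is driven by the Clara cell-specific promoter, so that Dox turns on TGFα in lung epithelium, and the study used animals of 10 to 16 weeks of age. All samples had therefore seen TGFα, and all had received a Stealth siRNA with a lipid reagent. No sample without siRNA was among the 6, so the level that transfection itself gives to these genes was not measured. Whether the samples were separate mice or separate cultures is not stated, and the p-values therefore cover only the spread among 3 samples of a group, part of which may be technical.

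Cells recognize foreign RNA with a small set of sensors. RIG-I (Ddx58) and MDA5 (Ifih1) bind double-stranded RNA in the cytoplasm and signal through MAVS on mitochondria. TLR3 binds such RNA in endosomes, without MAVS, and PKR (Eif2ak2) stops translation. The signal of RIG-I, MDA5 and TLR3 activates IRF3 and IRF7, which switch on type I interferon. Secreted interferon then acts through its receptor and a complex of STAT and IRF9 proteins to raise a large set of interferon-stimulated genes. An siRNA is itself a short double-stranded RNA. Fibroblasts are classic interferon producers and responders, and they express many of these genes at a resting level.

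The reads counted to genes numbered between 20820596 and 27572833 in the AURKB siRNA libraries and between 29350227 and 30441954 in the control siRNA libraries. Aurkb itself (Entrez gene 20877), the target of the siRNA, had 37.4, 52.8 and 28.9 normalized counts in the AURKB siRNA libraries and 99.5, 108 and 134 in the control siRNA libraries (log2 change -1.52, adjusted p = 0.000927 from limma). A normalized count is the number of reads of a gene divided by the size factor that the authors used for the library. A gene was tested where either group averaged 10 normalized counts or more, with limma on log2(normalized count + 1), and p-values were adjusted by the Benjamini-Hochberg method over all 13906 genes tested. To be called, a gene had to reach an adjusted p of 0.05 and also change by 1.5-fold or more. Fold changes are AURKB siRNA over control siRNA, and the log2 scale with 1 added understates the change of low genes.

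All 38 members passed the filter on low values. Of these, 0 were called higher and 2 were called lower with AURKB siRNA. The 2 were Ifit3 (Entrez gene 15959), an antiviral RNA-binding adaptor, and Psmb9 (Entrez gene 16912), a catalytic subunit of the immunoproteasome. Over all genes tested, 4.64% were called higher and 7.67% lower, so that the 5.26% of members called lower lay near the background. At an adjusted p of 0.05 or less without the fold limit, 1 member passed as higher (Ifit2) and 6 as lower (Trim25, Ifit3, Gbp2, Parp14, Psmb9 and B2m), or 15.8% of members, against 19.5% of all genes as higher and 20.5% as lower. At an unadjusted p under 0.05 there were 11 members (28.9%), against 48.9% of all genes, and limma's voom called 0 members higher and 2 lower (5.26%), against 4.65% and 7.56% of all genes. The median log2 change was -0.09 over the members and 0.003 over all genes tested, and 26 members had a log2 change below 0 and 12 above. The AURKB siRNA libraries all lay above the control siRNA libraries in 1 member and all below them in 9, where the share over all genes was 26% above and 26.2% below. With 3 libraries against 3, an exact two-sided permutation test of a single gene cannot give a p under 0.1.

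In 25 of the 38 members the 95% interval of the log2 change lay wholly under 1.5-fold in both directions, which is 65.8% of members and close to the 63.8% of all genes. In 8 members it reached past 1.5-fold lower (Ifit1, Ifit3, Oas2, Oasl1, Rsad2, Bst2, Psmb9 and B2m) and in 5 past 1.5-fold higher (Ifih1, Ddx60, Ifit2, Oas1a and Ifi44), so that changes of that size were not shut out there. The longest intervals were those of Oas2 and Rsad2.

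**Figure D1:**
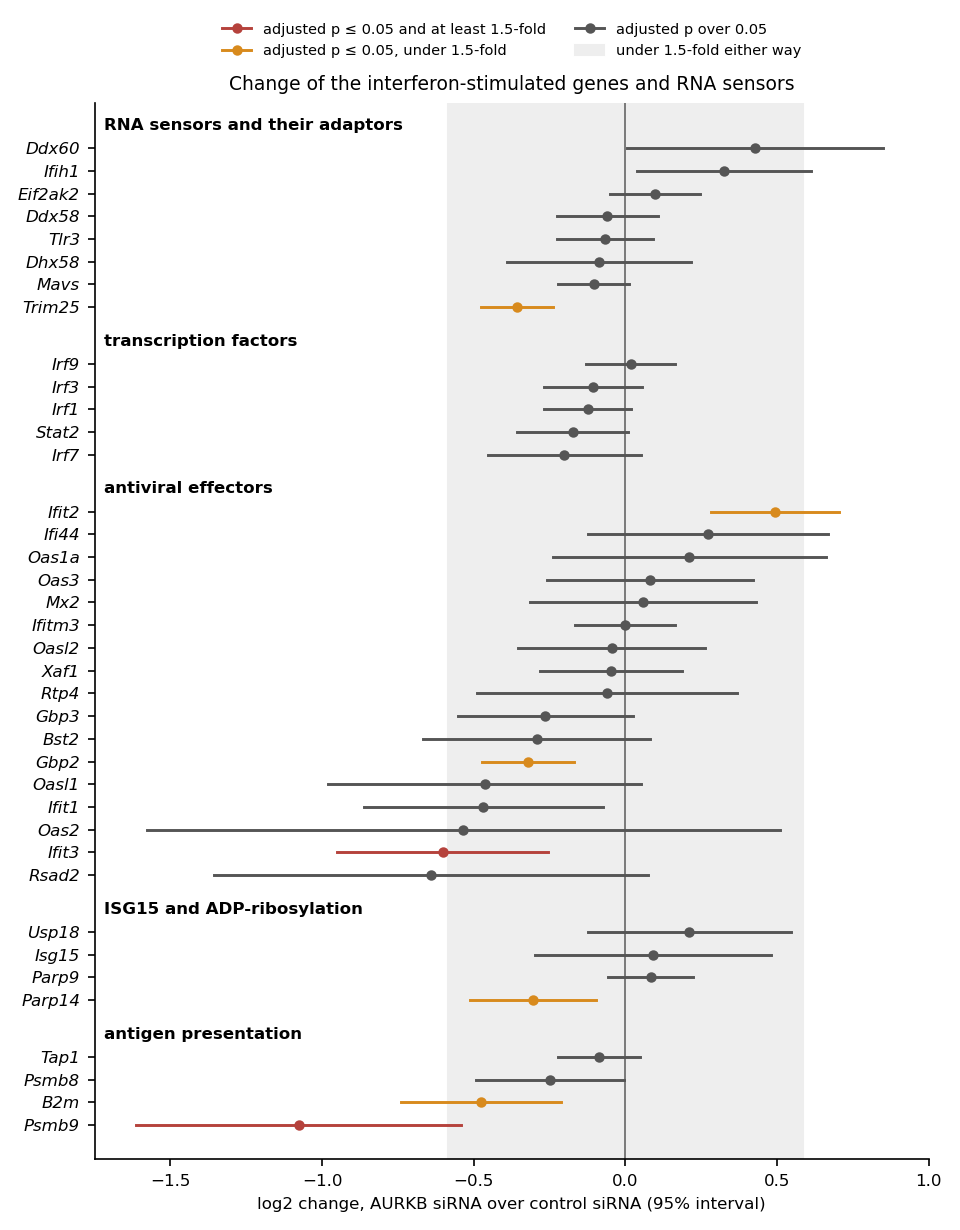
Log2 change of each of the 38 members, AURKB siRNA over control siRNA (horizontal axis), grouped by role, with 95% intervals from limma (n = 3 libraries each). Ifit3 and Psmb9 are the 2 members called lower, 5 further members passed the adjusted p under 1.5-fold, and the shaded band marks changes under 1.5-fold.

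The numbers of the replicates were linked between the groups. Across genes, libraries of the same number deviated together (correlations of 0.395, 0.173 and 0.214), and so did they over the 38 members (0.483, 0.212 and 0.465, a description over genes that are not independent). Replicate 1 was the highest library of both groups in 14 members (36.8%), against 16.3% of all genes tested. With the replicate number as a block, 0 members were called higher and 3 lower, Rsad2 being added, against 4.99% and 8.42% of all genes. By adjusted p alone, the block gave 3 higher (Ifit2, Ifih1 and Ddx60) and 12 lower members, where 23.3% and 24.8% of all genes passed.

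**Figure D2:**
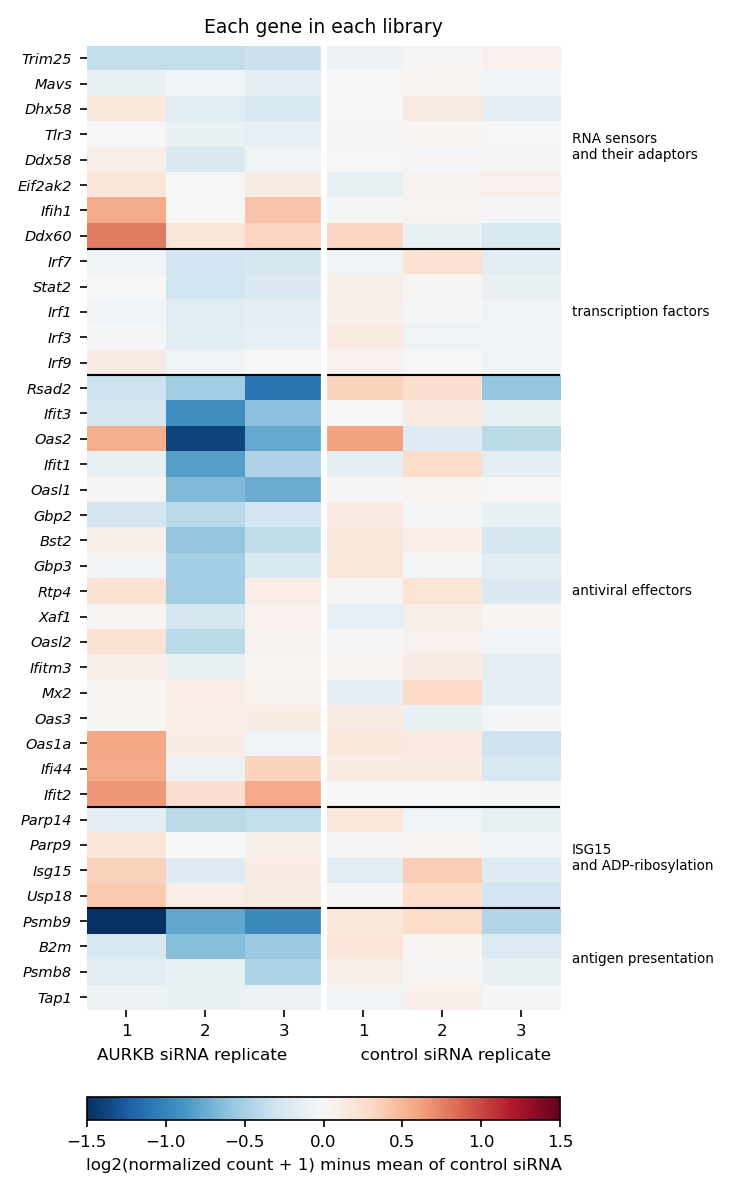
Log2(normalized count + 1) of each member in each library, minus the mean of the 3 control siRNA libraries (color), with AURKB siRNA libraries on the left. Psmb9 is low in all 3 AURKB siRNA libraries and Ifit2 is high in all 3, and 15 of the 17 antiviral effectors are higher in replicate 1 than in replicate 2 of AURKB siRNA.

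Per gene length, the members spanned a wide range of levels in these transfected cells. RPKM (reads scaled by gene length and library total) was highest for B2m, at 400.1 ± 66.8 with AURKB siRNA and 552 ± 71.8 with control siRNA (mean ± SD, n = 3 libraries each). Ifitm3, a membrane protein that blocks the entry of viruses, followed at 327 ± 25.6 RPKM with AURKB siRNA and 326 ± 29.2 with control siRNA. Bst2, or tetherin, which holds budding virus on the cell, came next at 112 ± 30.2 with AURKB siRNA and 135 ± 20.7 with control siRNA, and its 2 ranges overlapped. In all, 11 members had at least 10 RPKM in every library, and 5 (Mx2, Oas2, Oas3, Oasl1 and Rsad2) had under 1 RPKM in every library. Rsad2 (viperin), which makes an antiviral nucleotide, was the lowest, at 0.220 ± 0.0634 RPKM with AURKB siRNA and 0.351 ± 0.112 with control siRNA.

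**Figure D3:**
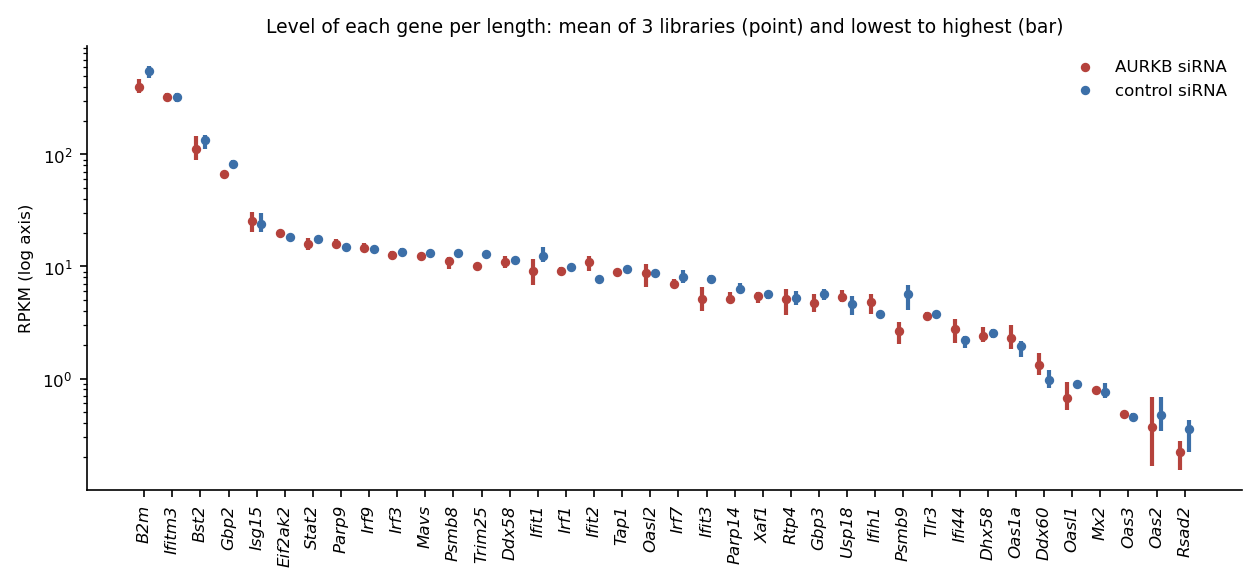
RPKM of each member on a log axis, ordered by the mean over all 6 libraries, with the mean (point) and the lowest to highest library (bar) of AURKB siRNA (left of each pair) and control siRNA (n = 3 libraries each). The order runs from B2m and Ifitm3 to Oas2 and Rsad2, and the 5 members at the right end lie under 1 RPKM in every library.

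Of the 8 RNA sensors and their adaptors, 0 were called and Trim25 alone passed the adjusted p. Trim25, an E3 ligase that takes part in the activation of RIG-I, was at 1498, 1499 and 1547 normalized counts in the AURKB siRNA libraries, against 1836, 1961 and 2028 in the control siRNA libraries. All AURKB siRNA libraries lay below all control siRNA libraries, and within each group the values were close (log2 change -0.36, standard error 0.05, adjusted p = 0.000849). Ifih1 (MDA5), the sensor of long double-stranded RNA, had 835, 565 and 761 normalized counts with AURKB siRNA and 561, 585 and 556 with control siRNA. Replicates 1 and 3 of AURKB siRNA were above every control siRNA library, and replicate 2 was among them (log2 change 0.33, adjusted p = 0.0689, and 0.0234 with the block). Ddx60, a helicase reported to act beside RIG-I, was at 269, 177 and 196 with AURKB siRNA and 196, 146 and 134 with control siRNA. The groups overlapped, and within each replicate number the AURKB siRNA library was the higher one (log2 change 0.43, adjusted p = 0.0992, and 0.00765 with the block). Without control siRNA replicate 1 the change of Ddx60 was 0.59 with an adjusted p of 0.0347, which is past both limits.

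The other sensors differed little. Eif2ak2 (PKR) was the sensor of highest RPKM, with 2442, 2161 and 2322 normalized counts with AURKB siRNA and 1993, 2237 and 2245 with control siRNA. Its 95% interval ran from -0.05 to 0.25 on the log2 scale. Mavs, the adaptor of RIG-I and MDA5, was at 1088, 1118 and 1055 with AURKB siRNA and 1177, 1193 and 1137 with control siRNA. The Mavs groups did not overlap, but the change was small (log2 change -0.10, interval -0.22 to 0.01, adjusted p = 0.137). Ddx58 (RIG-I), Tlr3 and Dhx58 (LGP2, a helicase relative without the signaling domain) had log2 changes of -0.06, -0.07 and -0.09. Their adjusted p-values were 0.546, 0.469 and 0.635, and each group overlapped the other.

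None of the 5 transcription factors passed the adjusted p, and their log2 changes lay between -0.20 and 0.02. Stat2, a subunit of the complex that binds interferon response elements, had 2092, 1701 and 1811 normalized counts with AURKB siRNA and 2232, 2118 and 1956 with control siRNA. Its groups overlapped, and its adjusted p was 0.12, or 0.0206 with the block (log2 change -0.17). Irf9, the DNA-binding partner in the same complex, was at 1144, 1009 and 1044 with AURKB siRNA and 1098, 1053 and 1005 with control siRNA (log2 change 0.02, interval -0.13 to 0.16). Irf3, which sensors activate by phosphorylation, Irf7, which interferon itself induces, and Irf1, which interferon gamma induces strongly, had log2 changes of -0.11, -0.20 and -0.12. Their adjusted p-values ran from 0.152 to 0.263. The activity of these factors is set largely by phosphorylation and location, which RNA levels do not measure.

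Of the 17 antiviral effectors, 0 were called higher and 1 lower, and Ifit2 and Ifit3, of the same family, moved in opposite directions past the adjusted p. These proteins bind viral RNA and each other, and Ifit2, Ifit3 and Ifit1 lie together on chromosome 19 (GRCm38 positions 34550550 to 34576534, 34583119 to 34588982 and 34640889 to 34650009). Ifit2 was at 1297, 988 and 1226 normalized counts in the AURKB siRNA libraries, against 829, 831 and 818 in the control siRNA libraries. Every AURKB siRNA library was above every control siRNA library, and the change was past the adjusted p but under 1.5-fold (log2 change 0.49, standard error 0.09, adjusted p = 0.00317). Without AURKB siRNA replicate 2 the log2 change of Ifit2 was 0.61, over 1.5-fold, with an adjusted p of 0.000176. Ifit3 was at 349, 218 and 269 with AURKB siRNA and 413, 453 and 385 with control siRNA. Here every AURKB siRNA library was below every control siRNA library (log2 change -0.60, standard error 0.15, adjusted p = 0.0133, n = 3 libraries each). The change of Ifit3 lies close to the fold limit, and its call was lost with quantile normalization (-0.58), with RPKM values (-0.51), without AURKB siRNA replicate 2 (-0.44) and without control siRNA replicate 2 (-0.54, adjusted p = 0.0546). Ifit1 was at 816, 496 and 639 with AURKB siRNA and 798, 1069.9 and 804 with control siRNA. The groups overlapped through replicate 1 of AURKB siRNA (log2 change -0.47, adjusted p = 0.0591, and 0.031 with the block). Without that library the log2 change of Ifit1 was -0.65 with an adjusted p of 0.00809, which is a call.

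A ratio within a library does not depend on the scaling between libraries. The ratio of Ifit2 to Ifit3 normalized counts was 3.71, 4.52 and 4.55 in the AURKB siRNA libraries, against 2.01, 1.83 and 2.12 in the control siRNA libraries. The ratio of Ifit2 to Ifit1 was 1.59, 1.99 and 1.92 with AURKB siRNA and 1.04, 0.777 and 1.02 with control siRNA. Both ratios were higher in all 3 AURKB siRNA libraries than in any control siRNA library, although they were chosen after the values were seen and have no test. Ifit3 has a near copy in the mouse, Ifit3b, and reads of the 2 genes may have been divided between them by the alignment. Their summed normalized counts were 452, 274 and 365 with AURKB siRNA and 573, 642 and 536 with control siRNA, or 62.3% of the control siRNA mean. The sum was thus lower in every AURKB siRNA library as well. Ifit1 overlaps the annotated gene Ifit1bl1 along its whole length, so that its count is uncertain in the same way. Eif2ak2 and Rtp4 share part of their length with Gm6548 and Masp1, which like Ifit1bl1 are among the genes of the deposited table. B2m shares its whole length with Patl2, which is not among them.

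**Figure D4:**
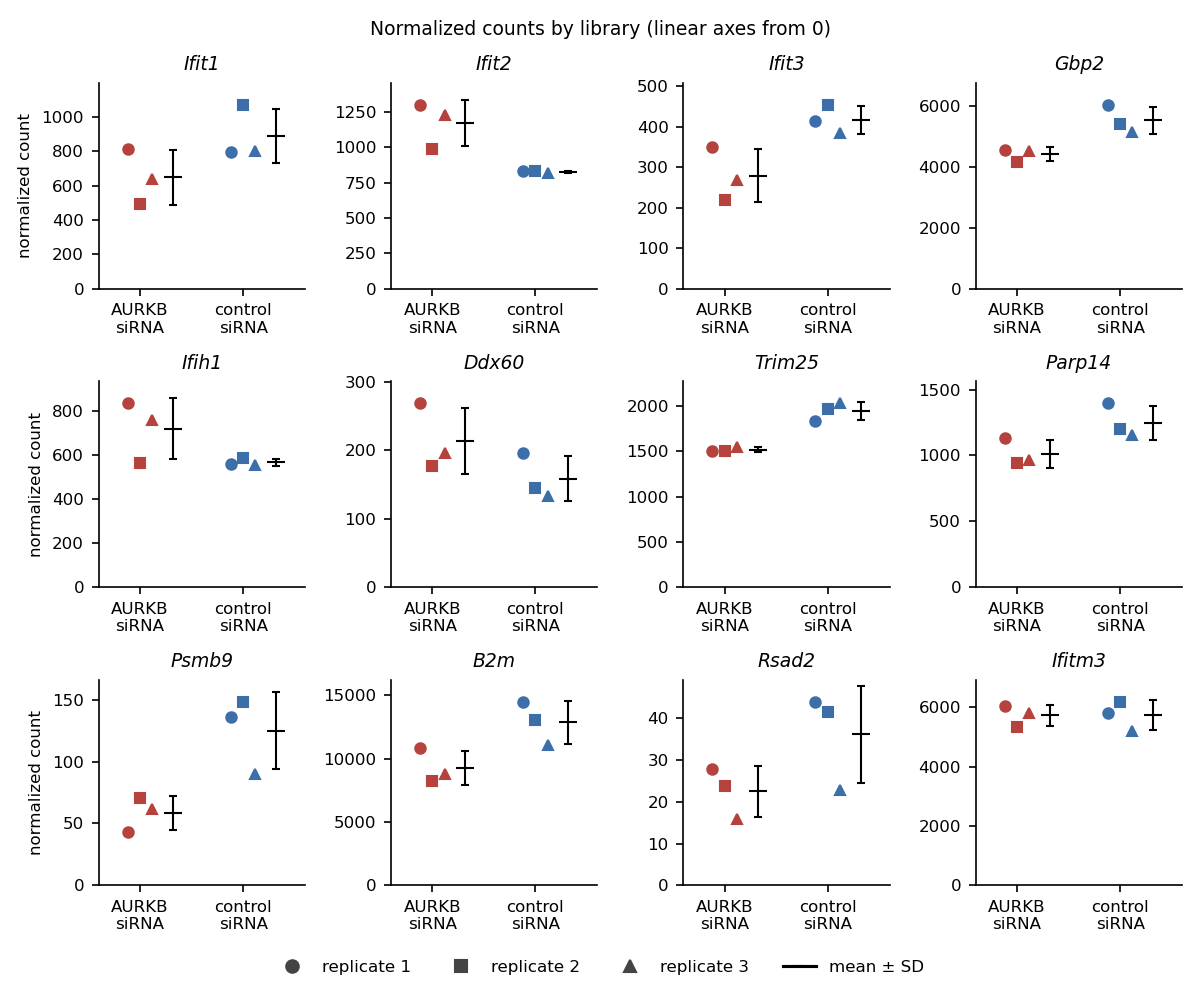
Normalized counts of 12 members in each library (vertical axes from 0), AURKB siRNA at left and control siRNA at right, with replicate numbers as symbols and the mean ± SD beside them (n = 3 each). Ifit2 lies higher and Ifit3, Gbp2, Trim25, Parp14, Psmb9 and B2m lie lower in all 3 AURKB siRNA libraries than in any control siRNA library, while the groups of Ifit1, Ifih1, Ddx60, Rsad2 and Ifitm3 overlap.

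The promoters of many members hold the interferon-stimulated response element, which IRF9, with its STAT partners, and other IRF proteins bind. Its core was searched on both strands as the letters GAAA, any pair of bases, and GAAA again, in RefSeq promoters of GRCm38.p6. These cover 250 bases before to 50 after a start listed for the gene, which can differ from the gene positions given above. For Ifit2 and Ifit3 the start used lies inside those positions. The search for Ifit2 therefore covered fewer than 250 bases before its printed position. A promoter was matched for 31 of the 38 members (all but Dhx58, Mx2, Oas2, Rtp4, Usp18, Parp9 and Parp14), and 16 of the 31 (51.6%) held the core, against 440 of 11687 genes of the table (3.76%) and 3.44% of all promoters. The gamma-activated letters TTCNNNGAA, searched on both strands alike, were in 7 of the 31 (22.6%), against 8.31% of the genes of the table. The following windows were chosen to show that the core lay in members that passed the test and in members that did not, with the core in capitals on the strand of the gene, where TTTC marks a core on the opposite strand.
Ifit1: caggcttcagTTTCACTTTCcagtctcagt
Ifit1, nearer the start: ccagtctcagTTTCAGTTTCtcactgctga
Ifit3: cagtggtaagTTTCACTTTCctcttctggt
Ifit3, nearer the start: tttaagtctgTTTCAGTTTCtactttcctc
Ifit3b: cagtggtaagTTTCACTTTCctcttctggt
Ifit3b, nearer the start: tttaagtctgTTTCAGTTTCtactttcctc
Gbp2: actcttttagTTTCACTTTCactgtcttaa
B2m: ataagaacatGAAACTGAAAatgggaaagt
Isg15: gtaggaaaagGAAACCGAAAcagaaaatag
Ifitm3: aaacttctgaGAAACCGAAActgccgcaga

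The windows lie at chr19:34640775-34640804 and chr19:34640794-34640823 (Ifit1), chr19:34583363-34583392 and chr19:34583397-34583426 (Ifit3), chr19:34607759-34607788 and chr19:34607793-34607822 (Ifit3b), chr3:142620594-142620623 (Gbp2) and chr2:122147538-122147567 (B2m), all on the forward strand. Those of Isg15 and Ifitm3 lie on the reverse strand at chr4:156200871-156200900 and chr7:141010706-141010735. Ifit3 and its copy Ifit3b share both windows letter for letter. Ifit1 has the same 2 cores as Ifit3, TTTCACTTTC and TTTCAGTTTC, in other flanks. Ifit2, which passed the adjusted p as higher, and Trim25 and Psmb9, which passed as lower, had no match to this core in their promoters. Neither had Tap1 or Psmb8, while Ddx60 and Ifih1, higher by adjusted p with the block, held it. Whether the core bears on the direction of change was not tested. A match is a description of letters, and no match says only that these letters are not in the window. In a search of 3′ UTRs (GENCODE M21), the words AACGTGT and ACGTGTA, picked in earlier work on these libraries from genes lower with AURKB siRNA, were in 0 of the 38 members and in 919 of 13576 genes of the table (6.77%). Since the words were picked from these same libraries, these shares are no test of the members.

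Among the other effectors, the guanylate-binding protein Gbp2 passed the adjusted p. Gbp2, an interferon-induced GTPase that attacks the membranes around intracellular pathogens, was at 4561, 4149 and 4521 normalized counts in the AURKB siRNA libraries, against 6024, 5401 and 5141 in the control siRNA libraries. The groups did not overlap, and the change was under 1.5-fold (log2 change -0.32, standard error 0.07, adjusted p = 0.00503). Gbp3, its neighbor on chromosome 3, had a log2 change of -0.26 with an adjusted p of 0.133, or 0.03 with the block. Rsad2 had 27.8, 23.8 and 15.8 normalized counts with AURKB siRNA and 43.9, 41.5 and 22.9 with control siRNA. Replicate 3 was the lowest in both groups, and Rsad2 was lower in the AURKB siRNA library of each replicate number (log2 change -0.64, adjusted p = 0.138, and 0.0404 with the block, which is a call). Without control siRNA replicate 3 the log2 change of Rsad2 was -0.93 with an adjusted p of 0.0482.

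The 2 effectors of highest RPKM did not pass. Bst2 held 2963, 1856 and 2134 normalized counts with AURKB siRNA and 3130.5, 2976 and 2313 with control siRNA, and AURKB siRNA replicate 1 lay within the control siRNA range (log2 change -0.29, adjusted p = 0.192, and 0.0264 with the block). Ifitm3 was at 6033, 5335 and 5824 with AURKB siRNA and 5827, 6195 and 5200.0 with control siRNA. Its groups overlapped fully, its log2 change was -0.001 and its interval ran from -0.17 to 0.16, while its sign depended on the scaling. The Oas family holds the oligoadenylate synthetases, which double-stranded RNA activates, and relatives of them. Oas2, Oas3 and Oasl1 were under 1 RPKM in every library, and Oasl2 averaged 8.67 ± 1.97 RPKM with AURKB siRNA and 8.75 ± 0.389 with control siRNA. Oas1a, Oas3 and Oasl2 had log2 changes of 0.21, 0.08 and -0.04 with adjusted p-values of 0.43 or more. Oas2 and Oasl1 had log2 changes of -0.53 and -0.46 with adjusted p-values of 0.391 and 0.137, or 0.0982 and 0.105 with the block. Both were called lower without AURKB siRNA replicate 1 (-1.07 and -0.70, adjusted p = 0.0371 and 0.027), in a fit that kept control siRNA replicate 1. Replicate 1 of AURKB siRNA held 70.0 normalized counts of Oas2, above the other libraries of that group. Replicate 1 of control siRNA was likewise the highest of its group, at 72.6 against 41.5 and 35.7. Ifi44, Mx2, Xaf1 and Rtp4 had log2 changes between -0.06 and 0.27 and adjusted p-values of 0.246 or more.

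The 4 members of ISG15 conjugation and ADP-ribosylation gave 0 calls. Isg15, the ubiquitin-like modifier and one of the most strongly interferon-induced genes, had 608, 419 and 519 normalized counts with AURKB siRNA and 424, 620.2 and 417 with control siRNA. The groups overlapped, with control siRNA replicate 2 the highest of all libraries (log2 change 0.09, interval -0.30 to 0.48, adjusted p = 0.707). Usp18, the protease that removes ISG15 and dampens the interferon receptor, had a log2 change of 0.21 with an adjusted p of 0.288. Parp9, which pairs with the E3 ligase DTX3L, was at 1655, 1444 and 1529.9 with AURKB siRNA and 1473, 1501 and 1391 with control siRNA (log2 change 0.08, adjusted p = 0.319). Parp14, a large macrodomain ADP-ribosyltransferase, was at 1131, 942 and 962 with AURKB siRNA and 1396, 1201 and 1152 with control siRNA. All its AURKB siRNA libraries lay below all control siRNA libraries, at under 1.5-fold (log2 change -0.30, adjusted p = 0.0267). Parp9 and Dtx3l overlap in the annotation, and whether reads were counted by strand is not known here, so that each count may hold some reads of the other gene.

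The 4 members of antigen presentation were lower in every AURKB siRNA library than in any control siRNA library, as were 26.2% of all genes, and 1 of the 4 was called. Psmb9 (LMP2), which replaces the proteasome subunit Psmb6 after interferon exposure, was at 43.2, 70.4 and 61.8 normalized counts in the AURKB siRNA libraries, against 136, 148 and 89.7 in the control siRNA libraries. Its mean with AURKB siRNA was 46.8% of the control siRNA mean (log2 change -1.08, standard error 0.24, interval -1.61 to -0.54, adjusted p = 0.00649). The call held in all 16 other settings of the fit, with log2 changes from -1.30 to -0.86. B2m, the light chain of MHC class I, was at 10812, 8247 and 8760.0 with AURKB siRNA and 14508, 13030.0 and 11111 with control siRNA. It passed the adjusted p under 1.5-fold (log2 change -0.48, standard error 0.12, adjusted p = 0.011, and 7.06e-05 with the block). Without AURKB siRNA replicate 1 the log2 change of B2m was -0.59, a call (adjusted p = 0.00215). Psmb8 (LMP7), the second of the inducible subunits, was at 394, 405 and 315 with AURKB siRNA and 468, 446 and 405 with control siRNA (log2 change -0.25, adjusted p = 0.0961, and 0.0217 with the block). Its groups all but touched, at 404.8 for the highest AURKB siRNA library and 405.4 for the lowest control siRNA library. Tap1, a subunit of the peptide transporter, had a log2 change of -0.09 (interval -0.22 to 0.05, adjusted p = 0.272).

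Psmb9, Tap1 and Psmb8 are neighbors on chromosome 17 (GRCm38 positions 34182030 to 34187330, 34187556 to 34197225 and 34198195 to 34201454). The ratio of Psmb9 to Tap1 normalized counts was 0.0591, 0.0985 and 0.0858 in the AURKB siRNA libraries, against 0.184, 0.183 and 0.119 in the control siRNA libraries. Every AURKB siRNA library had the lower ratio. The subunits that Psmb8, Psmb9 and Psmb10 replace, Psmb5, Psmb6 and Psmb7, had log2 changes of 0.16, 0.14 and 0.16, of which Psmb7 alone passed the adjusted p (0.0258), under 1.5-fold. With the block all 3 passed the adjusted p as higher, under 1.5-fold, where 23.3% of all genes passed as higher. The ratio of Psmb9 to Psmb6 was 0.0195, 0.0317 and 0.0279 with AURKB siRNA and 0.0719, 0.0688 and 0.0454 with control siRNA. The ratio of Psmb8 to Psmb5 was 0.230, 0.222 and 0.174 with AURKB siRNA and 0.310, 0.261 and 0.260 with control siRNA. Both ratios were lower in all AURKB siRNA libraries than in any control siRNA library, and that of Psmb10 to Psmb7 overlapped between the groups (0.169, 0.193 and 0.146 with AURKB siRNA, 0.197, 0.185 and 0.179 with control siRNA). These ratios were chosen after the values were seen and have no test.

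Other genes of the pathway were read from lists drawn up by function, with earlier results of these data known. Of the 14 interferon ligands listed, Ifnb1 and interferon gamma among them, 0 were analysed here. Of 20 genes of interferon receptors and JAK-STAT signaling, 0 were called higher and 1 lower (5%), against 4.64% and 7.67% of all genes. The median log2 change of this list was -0.14. The called gene was Ifnlr1, a chain of the interferon lambda receptor, at 81.5, 51.8 and 68.3 normalized counts with AURKB siRNA, against 126, 96.8 and 90.6 with control siRNA (log2 change -0.64, adjusted p = 0.0318). This call was lost without control siRNA replicate 1 or 2 and without AURKB siRNA replicate 2 or 3 (-0.68 to -0.46, adjusted p = 0.0621 to 0.111). Ifnlr1 was below the level tested with RPKM values. The type I receptor chains Ifnar1 and Ifnar2 had log2 changes of -0.20 (adjusted p = 0.0179) and -0.10 (adjusted p = 0.11). By adjusted p alone, 3 of the 20 passed as higher and 7 as lower (15% and 35%), against 19.5% and 20.5% of all genes.

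Of the 25 genes of the relay from sensors to IRF and NF-kB, 22 were tested, with 2 called higher and 2 lower (median log2 change 0.04). That is 9.09% in each direction, against 4.64% of all genes called higher and 7.67% lower. Traf3, an adaptor that carries the MAVS and TRIF signals to the kinase TBK1, was lower, at 890.3, 949 and 827 normalized counts with AURKB siRNA, against 1657, 1263 and 1439 with control siRNA (log2 change -0.70, adjusted p = 0.000581). Rnf125, an E3 ligase that marks RIG-I for breakdown, was lower too, at 28.8, 21.7 and 23.7 with AURKB siRNA and 52.9, 62.7 and 58.6 with control siRNA (log2 change -1.20, adjusted p = 0.00134). Tnfaip3 (A20), an inhibitor of NF-kB, was higher, at 379, 395 and 299.7 with AURKB siRNA and 264, 205 and 201 with control siRNA (log2 change 0.68, adjusted p = 0.00476). Tlr7, a sensor of single-stranded RNA, was higher at a very low level, 29.7, 18.6 and 15.8 normalized counts with AURKB siRNA and 7.17, 3.69 and 8.24 with control siRNA (log2 change 1.61, adjusted p = 0.01). With RPKM values Tnfaip3 was under 1.5-fold (0.47) and Tlr7 was below the level tested.

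DNA sensing and nucleic acid clearance gave 0 higher and 1 lower call of 17 (5.88% lower), against 4.64% and 7.67% of all genes. The called gene was Aim2, an inflammasome sensor of DNA, at 10.6, 19.7 and 6.57 normalized counts with AURKB siRNA, against 31.4, 24.0 and 26.5 with control siRNA (log2 change -1.21, adjusted p = 0.03). The call of Aim2 was lost without any 1 library except AURKB siRNA replicate 2 (-1.29 to -0.86, adjusted p = 0.06 to 0.0892). Aim2 was below the level tested with RPKM values. The cytoplasmic DNA sensor cGAS (Mb21d1) and its adaptor STING (Tmem173) had log2 changes of -0.01 and 0.01, with adjusted p-values of 0.979 and 0.888. Adar, the RNA editing enzyme that keeps a cell's own double-stranded RNA from the sensors, had a log2 change of -0.02 (interval -0.13 to 0.10).

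Of 59 further interferon-stimulated genes listed, 52 were tested, with 1 called higher and 6 lower, or 1.92% and 11.5%, against 4.64% and 7.67% of all genes (median log2 change -0.15). Among the 6 were Gbp5, an interferon gamma-induced GTPase, at 79.6, 85.9 and 81.5 normalized counts with AURKB siRNA, against 214, 173 and 206 with control siRNA (log2 change -1.25, adjusted p = 0.000105). Parp11, Ifi27l2a and Ifit3b were lower as well, by log2 changes of -0.83, -1.05 and -1.01 (adjusted p = 0.000255, 0.000283 and 0.00646). The higher gene was Cxcl10, a chemokine for T cells, at 34.5, 50.7 and 28.9 normalized counts with AURKB siRNA, against 23.3, 11.98 and 15.6 with control siRNA (log2 change 1.13, adjusted p = 0.0184), and it was named after its value was seen. This call was lost with RPKM values (0.53), and on leaving out AURKB siRNA replicate 2, control siRNA replicate 2 or control siRNA replicate 3 (0.91 to 1.10, adjusted p = 0.0569 to 0.0629). Of the 52, 3 passed the adjusted p alone as higher and 15 as lower (5.77% and 28.8%), where 19.5% and 20.5% of all genes did.

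Of 20 partners in antigen presentation, 0 were called higher and 1 lower (5%), against 4.64% and 7.67% of all genes (median log2 change -0.17). Tapbp (tapasin), which loads peptides onto MHC class I, was the called gene, at 4145, 3102 and 3737 normalized counts with AURKB siRNA, against 5715, 5323 and 5396 with control siRNA. Its change lay at the fold limit (log2 change -0.59, adjusted p = 0.00121), and the list had 0 lower calls with quantile normalization, upper quartile scaling or RPKM values. Leaving out AURKB siRNA replicate 2 gave Tapbp a log2 change of -0.48, and leaving out control siRNA replicate 1 gave -0.56, both under 1.5-fold. The MHC class I heavy chains H2-D1 and H2-K1 had log2 changes of -0.38 (adjusted p = 0.00829) and -0.27 (adjusted p = 0.0934), both under 1.5-fold. With the block the list had 4 lower calls of 20, where 8.42% of all genes were called lower. The 3 added were the class II genes Cd74, H2-Aa and H2-Ab1, which antigen-presenting cells express, named after their values were seen. Without the block their adjusted p-values from limma were 0.204, 0.113 and 0.132. With RPKM values Cd74 and H2-Aa were below the level tested. H2-Ab1 was at 113, 45.5 and 51.3 with AURKB siRNA and 191, 94.9 and 79.6 with control siRNA, and replicate 1 was the highest in both groups.

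**Figure D5:**
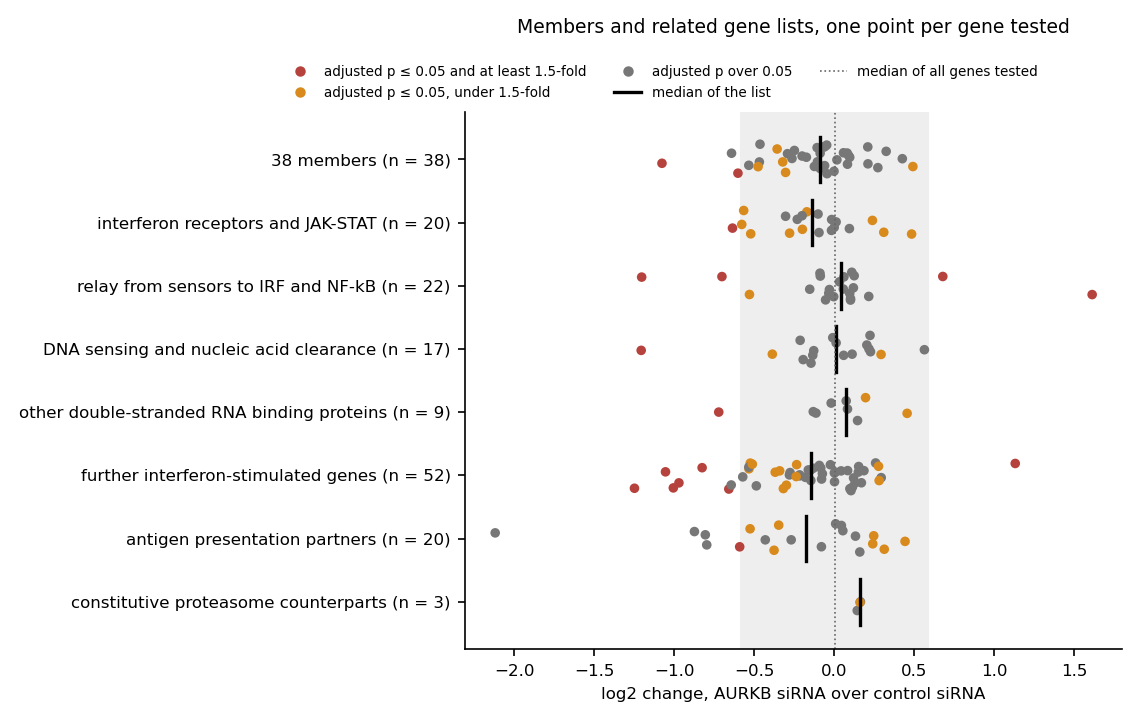
Log2 change of each gene tested (points), AURKB siRNA over control siRNA, for the 38 members and 7 related lists, with the median of each list as a black bar. The medians of the members and of the further interferon-stimulated genes, -0.09 and -0.15, lie slightly left of the median of all genes (0.003, dotted line). So do those of interferon receptors and JAK-STAT (-0.136) and of antigen presentation partners (-0.175), and those of the remaining lists lie to its right. Most points lie within the shaded band under 1.5-fold.

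Of the marker lists for cell types, the endothelial and neutrophil lists departed most from the shares over all genes, 4.64% called higher and 7.67% lower. All 10 fibroblast markers were tested, 3 were lower, and together they held 978710 to 1107200 normalized counts with AURKB siRNA and 1178100 to 1322300 with control siRNA, far above every other marker list. Of 15 macrophage and hematopoietic markers, 7 were tested and 2 were lower (Cd68 and Lyz2, the call of Lyz2 being lost without control siRNA replicate 2 or 3, at -0.69 and -0.80), with sums over those tested of 1465.5 to 2114.6 with AURKB siRNA and 2419.9 to 3306.2 with control siRNA. Their pan-leukocyte marker Ptprc had 3.84, 6.21 and 5.26 normalized counts with AURKB siRNA and 1.79, 4.61 and 3.66 with control siRNA, and 4 of the 15 were not analysed here. Of 11 endothelial markers 10 were lower, with sums of 3429.5 to 4191.7 with AURKB siRNA and 6724.2 to 8747.2 with control siRNA. Of 10 neutrophil markers 8 were tested and 7 were higher, with sums of 319 to 359 with AURKB siRNA and 45.8 to 60.1 with control siRNA, where Ngp was at 0 in all 3 control siRNA libraries. Of 9 epithelial markers 6 were tested, 1 was higher and 1 lower, and of 5 plasmacytoid dendritic markers Il3ra alone was tested and not called. Macrophages and endothelial cells also express MHC and interferon-stimulated genes, and the part of these cells in the lower values of Psmb9, B2m, Gbp2 and Ifit3 was not tested. In bulk RNA, fewer cells of a type and less RNA per cell cannot be told apart.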

How the data were processed

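Reads were aligned to mm10, and TopHat, DESeq, CASAVA 1.8 and bcl2fastq appear in the submitters' processing notes. For the read counter, its handling of strand and the gene models, the sources used here give no name. Expression per library had been deposited by the authors as RPKM, with reads scaled to gene length and to the library total. Beside them, the deposited signal columns are group means of read counts that the authors had divided by DESeq size factors. Columns with the authors' fold changes and p-values, and a second table with their significant genes, were not used here.

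Whole reads were recovered from both kinds of column, and 100% of the values came out whole within 0.001 reads. Divided by the size factors (0.7608 to 1.1155), they were tested with limma 3.58.1 (R 4.3.3, trend on, 4 residual degrees of freedom) across all 13906 genes that averaged 10 or more in a group. The adjusted p-values are Benjamini-Hochberg values from limma over all these genes, and intervals are 95% intervals of that fit. A negative binomial count model was not run.

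The members and lists were chosen with earlier results of these data known. Values by library were given for members called with or without the block, for those with an unadjusted p under 0.05 and for the 2 of highest RPKM in each role. Each list named up to 4 called genes of smallest p, with Ifnb1, Ifnar1, Ifnar2, cGAS, STING, Adar, H2-K1 and H2-D1 whatever their values. Some genes that this rule names are not reported here. Replicate numbers were taken as paired because libraries of the same number correlated by 0.395, 0.173 and 0.214 in their deviations from the group means, against -0.243 to 0.049 for different numbers. Promoters and gene positions are RefSeq on GRCm38.p6, matched by Entrez gene number, and figures were drawn with matplotlib 3.10.9.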

Additional observations from a re-analysis of the deposited data

How the results depend on the processing

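The 38 members were refitted under 16 other settings of scaling, unit, test, pseudocount, filter, pairing and left-out library, and 2 other thresholds were applied. Of 601 fits of a member under another setting, 589 kept both the main call and, where a call was made, its direction, 8 gained a call and 4, all of Ifit3, lost one. No called member changed direction, while 8 members close to 0 (Ddx58, Irf9, Mx2, Oasl2, Ifitm3, Xaf1, Rtp4 and Isg15) had the opposite sign in at least 1 setting. Members called lower numbered 1 with quantile normalization, 1 with RPKM values (of genes averaging 1 RPKM in a group), 1 at 2-fold (Psmb9) and 6 by adjusted p alone, which also gave 1 called higher. Leaving out each library in turn gave 0 to 1 members higher and 1 to 6 lower, the 6 (15.8%) without AURKB siRNA replicate 1, where 8.01% of all genes were lower. Each of these fits kept the library of the same number in the other group. Over these 6 fits, 4.13% to 4.55% of all genes were called higher and 6.45% to 8.01% lower. Over all genes, RPKM values gave 311 higher and 531 lower, the 2-fold limit 224 and 380, and adjusted p alone 2711 and 2850. Blocking on the replicate number (replicate block), 694 genes were higher and 1171 lower, 0 members were higher and 3 lower, and the median of the members stayed at -0.09. Apart from Rsad2, the block changed no member's call. The causes of these differences were not tested. Depth limits what can be said of Rsad2, Oas2, Oasl1, Oas3 and Mx2, with under 1 RPKM in every library, and the intervals given cover the spread among 3 libraries only.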
